A study of Mus musculus with 56 samples.

Results

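The promoters of 8 genes, Pkn2, Clic4, Fzr1, Add3, Smchd1, Inpp5f, Ankrd50 and Chml, were followed across Tet2 knockout (KO) and control lines of mouse granulocyte-monocyte progenitor (GMP) clones. The genes were chosen by their KO minus control difference in clones grown in stem cell factor (SCF), where their promoters were more accessible after Tet2 loss. Every value of that contrast is therefore given below as a description, without a test. A promoter was taken as all peaks centred within 1 kb of a transcription start site (TSS) of the gene, and the rest of its window as all other peaks centred within 50 kb of a TSS. The 8 genes had 273 of the 297361 peaks, 17 in promoters and 256 in the rest of the windows, and were 8 of 16919 protein-coding genes with a promoter peak.

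Accessibility was measured by ATAC-seq, where Tn5 transposase places adapters into exposed chromatin, in 56 libraries of 1000 cells. The cells came from the bone marrow of a Tet2 fl/fl mouse and carried Hoxb8 fused to an estrogen receptor domain, which held them as progenitors in 0.5 µM beta-estradiol. Each of 28 clones grew from a single sorted cell. One line of every clone received an integrase-defective lentiviral vector with Cre (Tet2 KO) and the other the same kind of vector with GFP (control), both at a multiplicity of infection of 200. There were 24 clones kept in SCF (about 100 ng/ml), which biases the cells to neutrophils, and 4 clones (19 to 22) kept in GM-CSF (10 ng/ml), which yields macrophage progenitors. The titles of clones 20, 21 and 22 named SCF, and these clones were placed with GM-CSF by their treatment field. The clones are the replicates, all of them carry the immortalising Hoxb8 fusion, and since no clone was grown in both cytokines, cytokine and clone of origin cannot be told apart.

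TET2 oxidises methylated cytosine in CpG dinucleotides, a step on the way to unmethylated DNA, and its inactivation is common in clonal hematopoiesis. Promoters rich in CpG are mostly unmethylated and open in all cells, and their accessibility reflects bound factors and displaced nucleosomes rather than transcript levels. The 8 genes share no single pathway. Pkn2 and Add3 act on the cytoskeleton, Fzr1 on the cell cycle, Smchd1 on chromatin, and Clic4, Inpp5f, Ankrd50 and Chml on membranes and their traffic.

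Total counts ran from 39379 to 1079233 per library (median 389432.5), and the shallowest libraries were KO lines in GM-CSF. There were 6 clones (3, 4, 13, 19, 20 and 27) with a library under 50% of the median total. The share of counts in promoter peaks had a median of 43.4% in SCF control lines and 46.1% in SCF KO lines, against 40.5% and 39.3% in GM-CSF. All 9 GMP and early neutrophil markers had a promoter peak, and their summed promoter level had a median of 268 CPM (counts scaled to a common library size) in SCF control lines, 290.1 in SCF KO lines, 177 in GM-CSF control lines and 127 in GM-CSF KO lines. The summed level of 5 monocyte markers was 64.9, 73.1, 30.9 and 28.7 CPM in the same order, and that of 5 lymphoid markers 13.3, 13.6, 13.0 and 9.60 CPM. The summed monocyte level was thus lower, not higher, in the GM-CSF clones, but its genes were split. In control lines, Klf4 (median 14.8 against 36.9 CPM in SCF) and Irf8 (5.10 against 20.3) were lower in GM-CSF. Csf1r (6.31 against 3.83) and Ccr2 (6.96 against 4.33) were higher, and Ly86 was at 0 in both. In the GMP list, Ms4a3 (51.2 against 16.6) and Prtn3 (8.26 against 6.92) were higher in GM-CSF control lines, while the other genes were lower. The Tet2 promoter did not pass the count filter in the SCF fit, measured −0.40 ± 0.41 (log2 difference, SE) in GM-CSF KO lines against control and, as a promoter, is no check of the deletion.

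Each of the 8 genes had 1 leading promoter peak of 301 bases, and their sequences were compared first, since sequence played no part in the choice of the genes. The stretches below were read from the GRCm38.p6 genome (mm10), 5′ to 3′ on the strand of the gene, and leave out annotated exons. Capitals mark every match to GGCGNGGC on either strand, a variant of the GC box that SP and KLF factors bind. The first 3 are shown for their repeated matches, the fourth for the gene with the steadiest difference across clones, and the fifth for the gene that stood apart in GM-CSF.
Add3 (chr19:53142442-53142741, plus strand): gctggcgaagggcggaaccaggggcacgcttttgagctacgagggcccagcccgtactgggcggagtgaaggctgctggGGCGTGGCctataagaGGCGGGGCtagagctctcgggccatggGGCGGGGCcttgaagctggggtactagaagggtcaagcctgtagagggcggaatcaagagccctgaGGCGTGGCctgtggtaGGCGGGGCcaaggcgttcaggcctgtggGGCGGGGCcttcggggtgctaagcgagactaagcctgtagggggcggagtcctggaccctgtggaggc
Ankrd50 (chr3:38484845-38485140, minus strand): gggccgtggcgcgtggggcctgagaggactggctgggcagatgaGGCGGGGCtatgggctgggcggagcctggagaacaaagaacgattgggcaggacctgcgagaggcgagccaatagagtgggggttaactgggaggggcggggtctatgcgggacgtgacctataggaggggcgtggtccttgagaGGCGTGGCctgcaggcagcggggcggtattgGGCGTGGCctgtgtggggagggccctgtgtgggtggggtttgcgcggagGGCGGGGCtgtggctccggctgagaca
Fzr1 (chr10:81378537-81378836, minus strand): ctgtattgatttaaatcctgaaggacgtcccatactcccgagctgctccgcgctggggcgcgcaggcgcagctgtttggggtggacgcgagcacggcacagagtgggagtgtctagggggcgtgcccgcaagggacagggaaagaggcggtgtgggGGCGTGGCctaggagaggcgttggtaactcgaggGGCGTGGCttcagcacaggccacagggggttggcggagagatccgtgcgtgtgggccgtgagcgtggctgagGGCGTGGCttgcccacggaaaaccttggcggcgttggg
Pkn2 (chr3:142882017-142882316, minus strand): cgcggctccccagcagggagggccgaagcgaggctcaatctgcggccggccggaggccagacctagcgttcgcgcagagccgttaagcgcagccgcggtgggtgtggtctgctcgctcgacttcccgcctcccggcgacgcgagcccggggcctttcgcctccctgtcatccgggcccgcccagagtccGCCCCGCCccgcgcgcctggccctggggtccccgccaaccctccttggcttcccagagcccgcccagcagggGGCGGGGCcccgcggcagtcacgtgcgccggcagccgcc
Smchd1 (chr17:71475344-71475570, minus strand): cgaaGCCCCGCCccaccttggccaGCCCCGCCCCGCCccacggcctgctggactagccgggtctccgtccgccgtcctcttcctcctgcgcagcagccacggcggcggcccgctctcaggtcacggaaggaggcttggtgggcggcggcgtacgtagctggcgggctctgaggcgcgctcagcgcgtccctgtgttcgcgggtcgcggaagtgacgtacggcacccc

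The letters GGCGNGGC were chosen after these sequences had been read, so the counts are a description. On both strands, the leading peak held 6 matches at Add3, 4 at Ankrd50, 3 at each of Clic4, Fzr1, Smchd1 and Chml, 2 at Pkn2 and 1 at Inpp5f. At least 3 matches were present in 6 of the 8 promoters (75.0%), in 632 of 7414 other tested promoters (8.52%) and in 81 of 376 other promoters that were called higher in SCF KO lines (21.5%). In the printed stretches, all 3 matches of Fzr1 read GGCGTGGC, while Add3 held 2 of that form and 4 of the form GGCGGGGC, and Ankrd50 2 of each. Of 10 further common promoter motifs, the GC box GGGCGG, which shares letters with GGCGNGGC, was in 7 of 8 leading peaks against 79.8% of other tested promoters, and was missing from Fzr1. CCAAT, the NFY motif, was in 2 of 8 (43.9% of others), and the ETS motif CCGGAAG (24.3% of others), the NRF1 motif GCGCATG (9.39%), the YY1 motif ATGGCGG (13.2%) and TATAAA (3.28%) were in none. TGACGT (CRE) was in 1 of 8 (16.0%), CACGTG (E-box) in 1 (12.1%), TGTGGT (RUNX) in 2 (11.0%) and GAGGAAG (PU.1) in 2 (14.1%). A match is no measured binding site, and with 8 promoters such shares move by 12.5 percentage points for each gene.

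**Figure D1:**
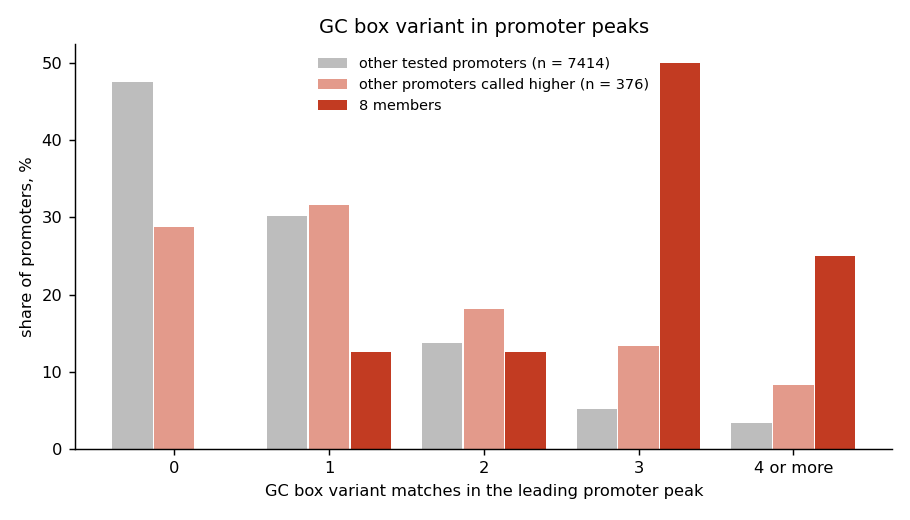
Share of promoters (vertical axis, %) by the number of GGCGNGGC matches on both strands of the leading 301-base promoter peak (horizontal axis), for the 8 genes, 376 other promoters called higher in SCF KO lines and 7414 other tested promoters. Of the 8 genes 75.0% held at least 3 matches, and of the other tested promoters 8.52%.

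The peaks differed in base composition. GC content ran from 60.8% at Inpp5f to 77.1% at Pkn2, with a median of 67.8% against 65.8% for other tested promoters. CpG dinucleotides, the substrate of TET2 when methylated, numbered 41 at Smchd1 and 39 at Pkn2 but 12 at Inpp5f, which was at percentile 2.98 of other tested promoters. The median was 22.5 CpG against 27 in the others. Position was more alike. Relative to the TSS of the gene, peak centres were at −188 for Inpp5f, −171 for Fzr1, −164 for Add3, −163 for Pkn2, −162 for Clic4 and −146 for Ankrd50, and these 6 overlapped at most 5 exon bases. A centre upstream at any distance was found for 87.5% of the 8 genes, 71.2% of other tested promoters and 79.8% of the other promoters called higher. The range of 100 to 200 bases upstream was not set in advance and encloses the 6 positions above, so its shares are a description. It held the centre for 6 of the 8 genes (75.0%), for 18.0% of other tested promoters and for 31.9% of the other promoters called higher. Smchd1 (−77, with 74 exon bases) and Chml (+67, with 163) were the exceptions. The Chml peak lay over first exons of both Chml and Opn3, so that its counts cannot be divided between these genes.

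Promoters held most of the counts in the windows of all but 1 of these genes, and no matching share was counted for windows of other genes. Over the whole series, promoter peaks were 8.24% of peaks and held a median of 43.95% of the counts of a library. Promoter peaks took 90.4% of all window counts at Pkn2, 88.0% at Chml, 84.6% at Ankrd50, 71.5% at Add3, 70.5% at Smchd1, 62.1% at Inpp5f and 56.8% at Clic4. Fzr1 was the exception with 21.2%, in a gene-dense window of 73 peaks, of which 15 were promoter peaks of other genes. Per peak of 301 bases, the leading promoter peak gathered between 1366 counts (Smchd1) and 3602 counts (Add3) over all libraries, while the strongest other peak held 35 counts at Ankrd50, 42 at Chml, 57 at Pkn2, 163 at Inpp5f, 218 at Smchd1, 270 at Clic4 and 361 at Add3. Outside the Fzr1 window, 1 peak beyond a promoter therefore passed the filter for single peaks, that at Add3, in the comparisons that include GM-CSF.

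**Figure D2:**
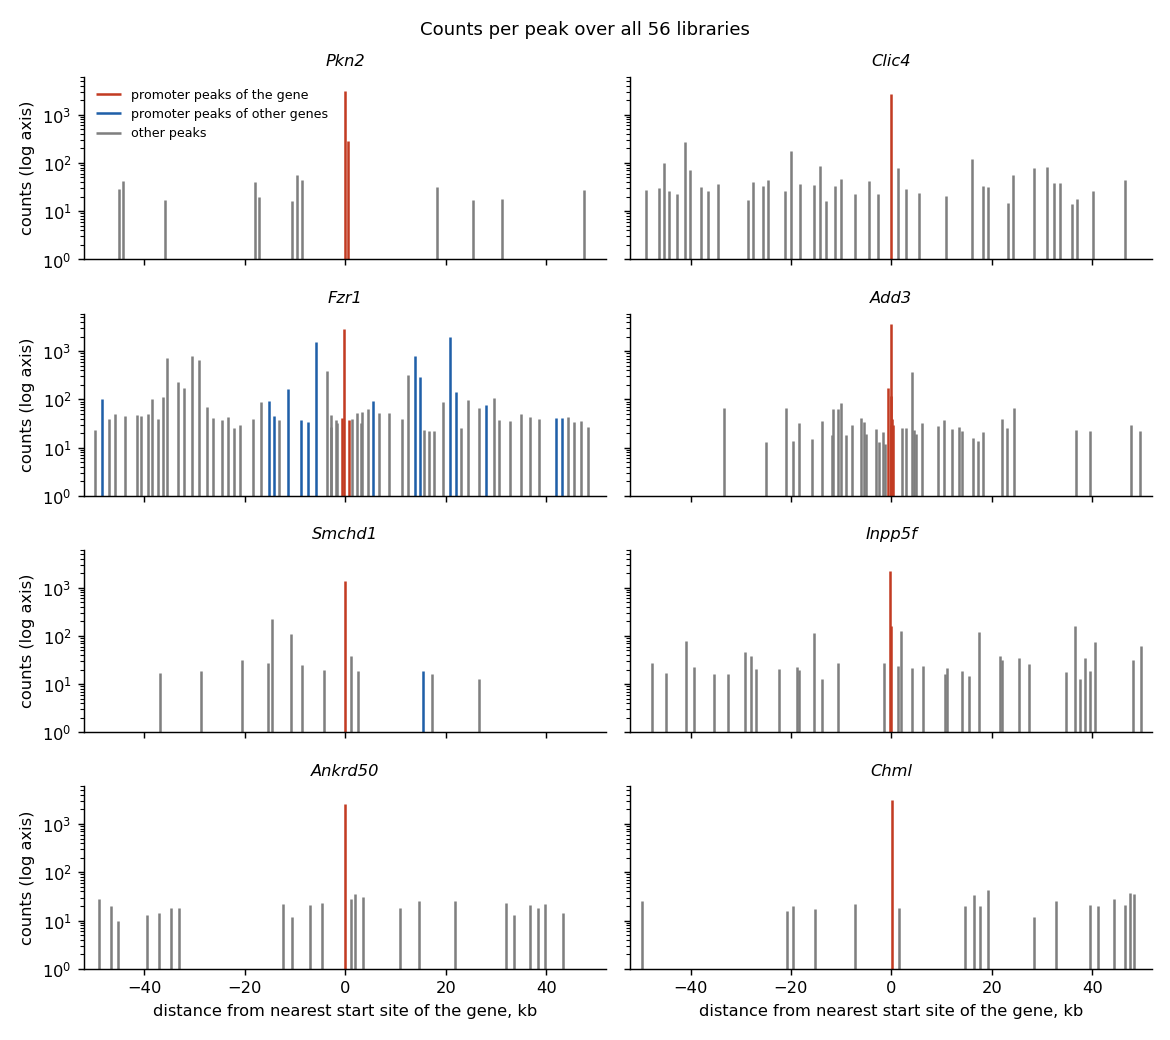
Counts per 301-base peak over all 56 libraries (vertical, log axis) against the distance of the peak centre from the nearest TSS of each gene in kb (horizontal). Red lines are promoter peaks of the gene, blue lines promoter peaks of other genes and grey lines other peaks. A single promoter peak stands above the rest in 7 windows, and the Fzr1 window holds several strong peaks of other genes.

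In SCF clones, the contrast on which the genes were selected, 5.17% of 7422 tested promoters were called higher in KO lines (384 higher and 104 lower, edgeR quasi-likelihood test, adjusted p under 0.05). All 8 genes were among them, which their choice fixed in advance and which is no test of them. Upper-quartile scaling left 238 higher and 215 lower promoters. Differences were modest, from 0.33 to 0.45 on the log2 scale, or 1.25-fold to 1.37-fold. Among tested promoters they ranked 1 (Clic4), 3 (Pkn2), 6 (Smchd1), 7 (Fzr1), 18 (Ankrd50), 19 (Chml), 59 (Inpp5f) and 74 (Add3) by size. These ranks restate the choice of the genes. In libraries of pooled cells, more cells with an open promoter and a more open promoter per cell cannot be told apart.

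Among the genes of the cytoskeleton, Pkn2 encodes a serine/threonine kinase that acts on actin and cell adhesion. Its promoter level ran from 86.4 to 237 CPM (median 125) over the 24 SCF control lines and from 108 to 294 CPM (median 169) over the KO lines, a fitted log2 difference of 0.45 ± 0.06 (SE). It was higher in the KO line of 23 of 24 pairs, the most of the 8 genes, where Inpp5f had 22. Clone 9 was the exception (−0.16, on 56 and 16 counts). Add3, which encodes the gamma subunit of adducin, a protein that caps actin and ties it to spectrin, had the highest level of the 8. Its promoter measured 106 to 316 CPM (median 155) in control lines and 139.9 to 347 CPM (median 199.8) in KO lines, a log2 difference of 0.33 ± 0.06 with 21 of 24 pairs higher. The groups overlapped over most of their range for both genes, and the difference showed within pairs.

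Fzr1 encodes the Cdh1 activator of the anaphase-promoting complex, which keeps cells in G1. Its level was 76.7 to 195 CPM (median 115) in control lines and 115 to 314 CPM (median 149.5) in KO lines, with a log2 difference of 0.41 ± 0.07 and 21 of 24 pairs higher. Smchd1 encodes a noncanonical SMC protein that maintains silencing of the inactive X chromosome and of imprinted genes. It was the least accessible and least precisely measured promoter, with 8.77 to 72.1 CPM (median 52.2) in control lines, 42.1 to 107 CPM (median 66.9) in KO lines and a log2 difference of 0.41 ± 0.09. Its highest pair value, 2.42 in clone 4, came from a control library with 1 count, and 21 of 24 pairs were higher.

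The other 4 genes act on membranes. Clic4, a chloride intracellular channel protein that moves between cytosol, membranes and nucleus, had the largest fitted difference, 0.45 ± 0.07. Its level ran from 65.1 to 180.4 CPM (median 100.4) in control lines and from 90.1 to 182 CPM (median 146) in KO lines, and 21 of 24 pairs were higher. Inpp5f encodes the phosphoinositide phosphatase SAC2 of endocytic membranes. It measured 52.1 to 151 CPM (median 93.4) and 84.3 to 173 CPM (median 122), a log2 difference of 0.33 ± 0.07 with 22 of 24 pairs higher. Ankrd50, an ankyrin repeat protein of endosomal recycling, measured 72.9 to 180.4 CPM (median 98.8) in control lines and 94.7 to 191 CPM (median 134) in KO lines. Its log2 difference was 0.38 ± 0.07 and 20 of 24 pairs were higher. Chml encodes Rab escort protein REP2, which presents Rab GTPases for prenylation, and its promoter had 82.8 to 237 CPM (median 123) in control lines, 113 to 233 CPM (median 158) in KO lines and a difference of 0.37 ± 0.07, with 21 of 24 pairs higher.

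The pair values in SCF describe the contrast that chose the genes, and the choice favours values above 0. Of the 192 gene and pair values in SCF, 170 were above 0, and no matching share was counted for other promoters. All 8 promoters were higher in 11 of 24 clones and at least 6 in 21 clones, and the mean over the 8 was above 0 in 23 clones. It ran from −0.08 in clone 3, which holds a shallow library, to 0.76 in clone 17, where every promoter was at least 0.65 higher. The SD over pairs lay between 0.28 (Pkn2) and 0.57 (Smchd1), and the SD from counting alone in the median pair between 0.25 (Add3) and 0.45 (Smchd1). Between genes, differences were weakly related across clones (28 Pearson correlations of differences over 24 pairs, median 0.10, from −0.42 to 0.54, a description of values that share libraries). In the series of clones 1 to 18 (17 clones) the median pair difference ran from 0.21 (Chml) to 0.49 (Pkn2), and in clones 23 to 29 (7 clones) from 0.31 (Pkn2) to 0.56 (Inpp5f). The share of promoter counts was also higher in SCF KO lines. With that share as a covariate the 8 differences were 0.29 to 0.45, and with an offset for GC content 0.30 to 0.41. Without clones 3, 4, 13 and 27, the SCF clones with a shallow library, they were 0.32 to 0.47.

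**Figure D3:**
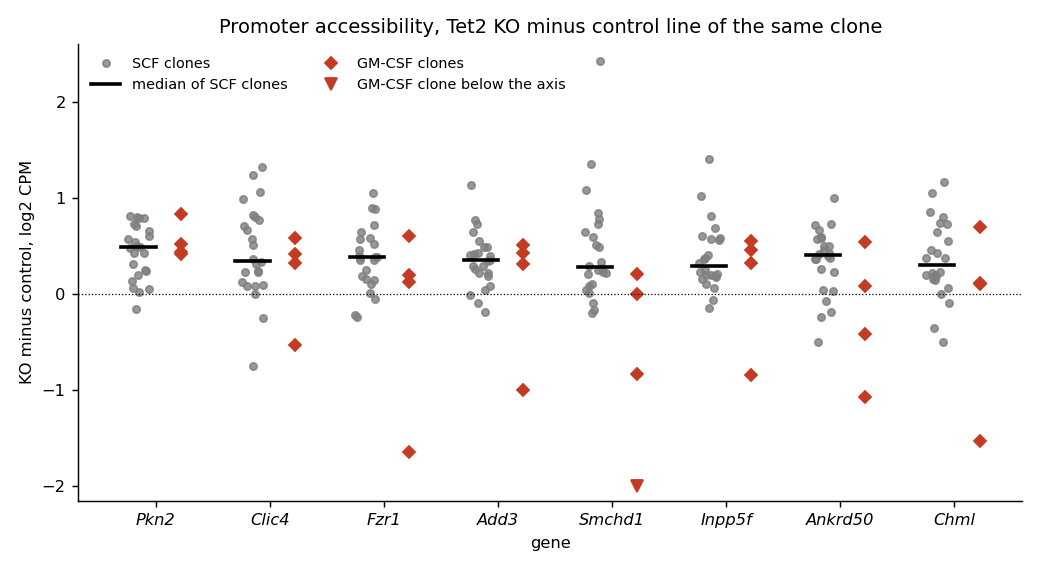
KO minus control difference in log2 CPM (vertical axis) at the promoter of each gene (horizontal axis). Grey points are the 24 SCF pairs, the bar is their median and red diamonds are the 4 GM-CSF pairs. The downward triangle marks a Smchd1 pair below the axis, whose KO library holds 0 counts. Pkn2 is above 0 in 23 of 24 SCF pairs and in all 4 GM-CSF pairs.

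The contrast that chose the genes did not use the 4 GM-CSF pairs, though earlier results of these data were known. The GM-CSF effect was fitted with all 56 libraries, so its SEs and p values draw on the spread of the SCF pairs. With GM-CSF libraries only, 7 of 8 differences were above 0. None passed (lowest edgeR adjusted p 0.777), and 2 had an unadjusted p under 0.05. The values below are from the fit of all libraries. None of the 8 promoters passed the edgeR test there (adjusted p 0.567 to 0.966), nor with DESeq2, and 0.0108% of 9285 tested promoters passed in either direction. At an unadjusted p under 0.05 there were 3 of 8 (Pkn2, Clic4 and Add3) with edgeR, 2 with DESeq2, and 6.79% of all tested promoters with edgeR. The differences were nevertheless above 0 for 7 of 8 genes, with a median of 0.32 against −0.03 over all tested promoters, of which 46.5% were above 0. The 376 other promoters called higher in SCF had a GM-CSF median of 0.21, and 83.2% of them were above 0. No test was made of the genes as a set.

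Pkn2 had the largest value, 0.48 ± 0.19 (95% interval 0.11 to 0.84), and was higher in the KO line of all 4 pairs. Its control and KO levels were 225 and 325 CPM in clone 19, 121 and 218 in clone 20, 112 and 151 in clone 21, and 132 and 179 in clone 22. Clic4 was higher in 3 of 4 pairs and lower in clone 19, with 147 and 100.0 CPM, then 174 and 218, 102 and 155, and 100.4 and 135 CPM in clones 19 to 22, a fitted difference of 0.43 ± 0.20 (0.05 to 0.81). Inpp5f had 108 and 149.96 CPM, 134 and 72.7, 89.0 and 133, and 99.1 and 125 CPM, a difference of 0.38 ± 0.20 (−0.01 to 0.78). Clone 20 alone was lower at Inpp5f, on 10 and 3 counts. Add3 measured 255 and 125 CPM, 214 and 267, 169 and 241, and 163 and 221 CPM, a difference of 0.37 ± 0.17 (0.03 to 0.70). The groups overlapped for all 4 of these genes.

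Chml and Ankrd50 had smaller values and wider pairs. Chml measured 225 and 75.0 CPM in clone 19, 201 and 218 in clone 20, 134 and 222 in clone 21, and 164 and 177 in clone 22, a difference of 0.27 ± 0.18 (−0.07 to 0.62), which turned to −0.05 without clone 21. Ankrd50 measured 68.6 and 49.99 CPM, 107 and 48.5, 104 and 111, and 102 and 149.97 CPM, a difference of 0.26 ± 0.21 (−0.14 to 0.67), which turned to −0.03 without clone 22. Both genes therefore had a direction that rested on 1 clone. Fzr1 was near 0, at 0.09 ± 0.20 (−0.31 to 0.49), with 167 and 49.99 CPM, 93.7 and 145, 116 and 126, and 107 and 123 CPM. Its interval includes the SCF value of 0.41, but that value chose the gene, so this is no test of agreement.

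Smchd1 was the one promoter with a negative fitted value, −0.51 ± 0.30 (−1.10 to 0.07, edgeR adjusted p = 0.787). Its control levels were 97.9, 0, 41.7 and 65.2 CPM in clones 19 to 22, on 10, 0, 22 and 50 counts, and its KO levels 0, 0, 48.7 and 34.4 CPM, on 0, 0, 22 and 14 counts. The 0 counts allow levels of up to 75.0 CPM in the KO line of clone 19, 72.7 CPM in the KO line and 40.2 CPM in the control line of clone 20 (3 counts, counting error only). Without clone 22 the value was −0.12 and without clone 21 it was −1.14, so that its size rested on these clones. The Smchd1 interval does not include its SCF value of 0.41. Whether the KO effect differed between SCF and GM-CSF was not tested at any of the 8 promoters, since the SCF value chose them.

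The GM-CSF pairs were sequenced to different depths, and the part of depth in the values below was not tested. In the deeper clones, 8 of 8 genes were above 0 in clone 21 and 7 of 8 in clone 22, where Smchd1 was the exception. In clone 19, 2 of 8 were above 0, and in clone 20, whose KO library was the shallowest of the series, 5 of 8. Genes of a clone share its libraries and are no replicates. The share of all promoters above 0 in each clone was not counted. With equal weight for the 4 pairs, the mean difference was below 0 at Smchd1 (−1.26), Ankrd50 (−0.22), Fzr1 (−0.18) and Chml (−0.15). It was above 0 at Pkn2 (0.55), Clic4 (0.19), Inpp5f (0.12) and Add3 (0.06). Without the clones that held a shallow library, which left clones 21 and 22 in GM-CSF, the differences ran from −0.37 (Smchd1) to 0.52. None of the 8 passed (lowest edgeR adjusted p 0.453), where 3 of 10140 tested promoters were called higher and 0 lower.

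**Figure D4:**
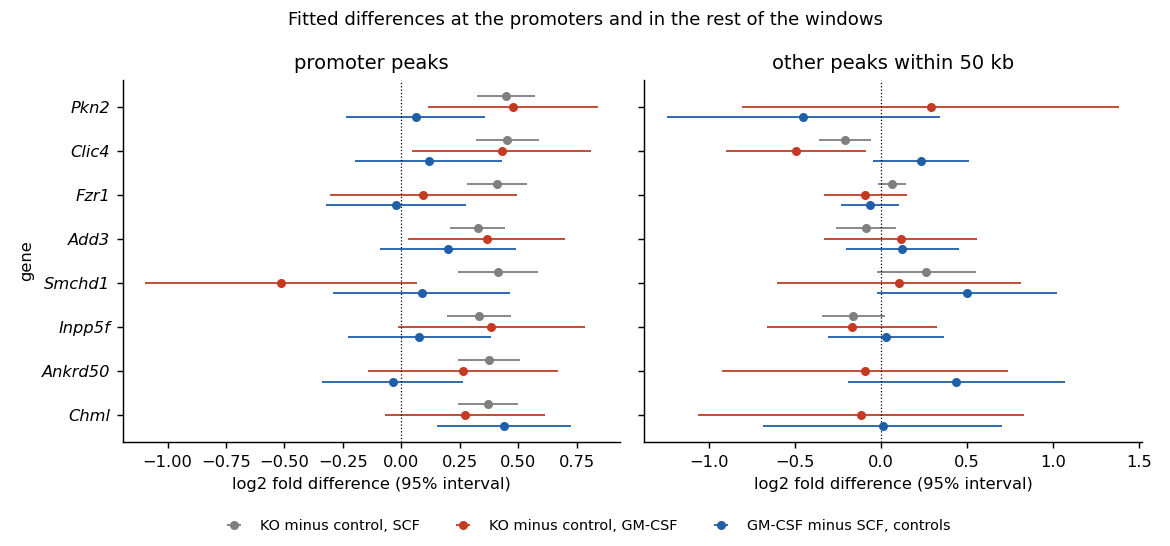
Fitted log2 fold difference with its 95% interval (horizontal axis) for each gene (vertical axis), at the promoter peaks (left) and over the other peaks within 50 kb (right). Grey is KO minus control in SCF, the contrast that chose the genes, red KO minus control in GM-CSF and blue GM-CSF minus SCF in control lines. At the promoters 7 of 8 red values lie above 0 with intervals wider than the grey ones, and Smchd1 lies at −0.51.

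The cytokine comparison asked whether control lines kept in GM-CSF differed from those in SCF at the same promoters. It shares the 24 SCF control lines with the contrast that chose the genes. Chml passed the test and the other 7 did not, where 4.44% of 9592 promoters were called higher and 5.93% lower. Chml was 0.44 ± 0.15 higher in GM-CSF (1.36-fold, 95% interval 1.11 to 1.65, edgeR adjusted p = 0.0335), with 225, 201, 134 and 164 CPM in the 4 GM-CSF control lines. All 4 were above the SCF median of 123 CPM but within the SCF range, so the groups overlapped. The adjusted p ran from 0.0128 to 0.227 over the alternatives. The call was lost with DESeq2 (0.069), against SCF clones 23 to 29 alone (0.0682), with the mean of both lines (0.0705), without clone 19 (0.100), clone 20 (0.0581) or clone 22 (0.227), and without the clones with a shallow library (0.059). Between the KO lines of both cytokines, where the SCF KO lines also took part in the choice, Chml was 0.32 ± 0.15 higher (adjusted p = 0.164). With the counts of both lines of a clone summed, a comparison added after the data were seen, it was 0.38 ± 0.12 higher (adjusted p = 0.0128).

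The other 7 promoters differed by −0.04 to 0.20 between the cytokines, each with a 95% interval that includes 0. Add3 measured 0.20 ± 0.15 (−0.09 to 0.49) and Ankrd50 −0.04 ± 0.15 (−0.34 to 0.27), and the median of the 8 was 0.08 against −0.01 over all tested promoters. The 376 other promoters called higher in SCF KO lines, which share the same SCF control lines, had a median of 0.14, with 71.8% above 0 and 52 called. The Chml call is to be read beside that value. With the mean of both lines of each clone, Ankrd50 moved to −0.43 (limma adjusted p = 0.0109) and was called lower. That run called 2718 of 9285 promoters lower. With the counts of both lines summed, Ankrd50 was at −0.09 ± 0.12 (edgeR adjusted p = 0.656). At Smchd1 the control lines differed by 0.09 ± 0.19, whereas the fitted value between KO lines was −0.87 ± 0.24. That value is a description, since a high level in the SCF KO lines is part of what chose Smchd1. The GM-CSF KO lines of clones 21 and 22 were at 48.7 and 34.4 CPM, against 42.1 to 107 CPM (median 66.9) over the 24 SCF KO lines. The other two, at 0 counts, allow levels of up to 75.0 and 72.7 CPM, above that median, and so show no lower level. With the lines of each clone summed, Smchd1 was at −0.30 ± 0.16 (adjusted p = 0.187).

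Beyond the promoters, the windows gave no call. In SCF, windows of 5 genes had enough counts to be fitted, and 2.97% of 14189 windows were called. The differences were −0.21 ± 0.08 at Clic4, −0.16 ± 0.09 at Inpp5f, −0.09 ± 0.09 at Add3, 0.06 ± 0.04 at Fzr1 and 0.26 ± 0.15 at Smchd1. The rest of the Clic4 window measured 68.2 to 141 CPM (median 95.5) in SCF control lines and 45.7 to 148 CPM (median 81.2) in KO lines, lower in 15 of 24 pairs, while its promoter was higher in 21. In GM-CSF, which the selecting contrast did not use, all 8 windows were fitted and none passed, nor did any of 16079 (0.0%, edgeR). At an unadjusted p under 0.05 there were 4.25% of all windows and 1 of the 8. That window was Clic4, at −0.49 ± 0.21 (95% interval −0.90 to −0.09), lower in 3 of 4 pairs. The median over the 8 windows was −0.09 against −0.01 over all windows. Between the cytokines, none of the 8 passed where 15.5% of 16205 windows were called, and none had an unadjusted p under 0.05, where 27.9% of all windows had one. The values ran from −0.45 ± 0.41 at Pkn2 to 0.50 ± 0.27 at Smchd1.

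Single peaks were compared next. In SCF, the differences at the leading promoter peaks were 0.35 (Inpp5f and Chml) to 0.47 (Pkn2), against 2.22% of 7871 tested peaks called higher at an adjusted p of 0.01 or less. The 6 other tested peaks all lay in the Fzr1 window, and their values were −0.12 at the Mfsd12 promoter, −0.09 and 0.02 at a pair of peaks near Smim24, −0.07 at the Hmg20b promoter, −0.06 near Nfic and 0.11 at the Dohh promoter. None of these neighbours passed, while the Fzr1 peak was at 0.40, a contrast between peaks that was not tested. In GM-CSF no tested peak near the 8 genes passed (0.00806% of 12405 peaks did). The leading peaks ranged from −0.54 ± 0.30 at Smchd1 to 0.48 ± 0.20 at Pkn2, and Pkn2, Clic4 and the peak near Nfic (−1.27 ± 0.59) had an unadjusted p under 0.05.

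Between the cytokines, 1 promoter peak and 1 distal peak were called. The Chml and Opn3 peak (chr1:175692684-175692984) was 0.50 ± 0.15 higher in GM-CSF (edgeR adjusted p = 0.0092, 4.8% of 13171 peaks called higher). A distal peak between Fzr1 and Dohh (chr10:81382045-81382345, centred at −3679 from the Fzr1 TSS) was called lower in GM-CSF (−2.22 ± 0.59 on the log2 scale), as were 9.88% of peaks. It passed the count filter only through the SCF lines, so a call could have had no other direction and its value is a description. It measured 0 to 34.0 CPM (median 16.6) over 24 SCF control lines on 180 counts, and 0 to 5.22 CPM over the 4 GM-CSF control lines on 5 counts, with 2 of these lines at 0. The Fzr1 promoter itself differed by 0.00 ± 0.16 in the same comparison. A peak near Nfic at −0.84 ± 0.28 (adjusted p = 0.0171) and one in Add3, 4094 bases downstream of a TSS, at −0.94 ± 0.44 (0.121) did not pass.

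Paralogs and partners of the 8 genes were counted next. Of 81 genes in 8 lists set by textbook role, 59 promoters were tested in SCF, where 2 were called higher and 0 lower (the background is 5.17% higher), with a median of 0.02 against −0.01 for all tested promoters. They were Anapc4, a subunit of the anaphase-promoting complex that Fzr1 activates (0.26 ± 0.07, edgeR adjusted p = 0.00886), 1 of 15 tested in that list, and Inpp5a, an inositol polyphosphate phosphatase (0.26 ± 0.07, 0.00682), 1 of 9. None passed among 6 genes of the list for Pkn2, 5 of the adducin and spectrin skeleton, 11 of SMC proteins and X silencing, 10 of endosome recycling and 3 of Rab prenylation, and no Clic paralog had enough counts. In GM-CSF 0 of 66 passed (7 at an unadjusted p under 0.05, and 0 with DESeq2). Between the cytokines 2 of 68 were higher and 2 lower, where 4.44% of all tested promoters were higher and 5.93% lower, so these counts are no result about the lists. Inpp5a was among the higher (0.47 ± 0.15, edgeR adjusted p = 0.0231). Cdc27, a scaffold subunit of the anaphase-promoting complex, was lower (−0.78 ± 0.19, 0.00121), as was Pikfyve, the kinase that makes phosphatidylinositol 3,5-bisphosphate (−0.65 ± 0.21, 0.0286).

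The promoters most like the mean of the 8 genes in their KO minus control difference over all 28 pairs were those of Pbx4 (Pearson r = 0.913), Mrpl47 and Ndufb5, which share 1 signal (0.909 for each), Ddx24 (0.909) and Rcan1 (0.896), where the median over 9277 promoters was 0.178. Over the 24 SCF pairs the same values were 0.643 for Pbx4, 0.604, 0.604, 0.629 and 0.603, and the pairs share libraries and depth. No median over all promoters was taken for the SCF pairs. In GM-CSF clone 19, which holds a shallow library, the mean of the 8 genes was −1.07, against −0.08 to 0.76 over the SCF clones. That mean includes Smchd1 at −4.39, on a KO library with 0 counts. How far that pair sets the values over 28 pairs was not tested. Pbx4 was called higher in SCF KO lines (0.35 ± 0.07, adjusted p = 0.0003). The other 4 were not called, with differences of 0.04 to 0.19.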

How the data were processed

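The authors deposited whole-number counts for every peak in every library, without scaling. Bowtie2, SAMtools, Picard and the mm10 build are named in the submitters' processing notes, and their versions were not given. The 297361 peaks of 301 bases combined summits from single-cell ATAC-seq with ImmGen peaks. It is not stated if a count is a fragment or a Tn5 insertion, or how duplicates were handled, so errors cover counting as deposited. Deposited peak coordinates and library names (other units) placed the counts.

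The members and gene lists were chosen with earlier results of these data known. TSSs came from GENCODE vM21 basic (GRCm38). Counts of a gene's peaks were summed as deposited and tested by the edgeR 4.0.16 quasi-likelihood F test (R 4.3.3), using TMM scaling and filterByExpr (minimum count 10), over all genes, with Benjamini-Hochberg adjustment. A promoter or window was called at an adjusted p under 0.05 and a single peak at 0.01 or less. The clone was a block in KO minus control comparisons, the lines of a clone sharing 1 founder cell by the design. The deviations of both lines of a clone correlated at a median of 0.055 in SCF (0.017 to 0.198 over 24 clones) and 0.057 in GM-CSF. GM-CSF pairs were fitted with all 56 libraries, and cytokines were compared between control lines without a block. Standard errors follow from the F statistic, 95% intervals are 1.96 SE, and log2 CPM used a prior count of 2. The text names all 8 members, single peaks near them that were tested, at most 3 passing genes per list and the 5 most correlated promoters over 1 Mb away. Alternatives were other scalings, DESeq2 1.42.0, limma 3.58.1, other windows, GC content (20 bins) and promoter share terms, and clones left out. A gene counted among the lists is not reported here. Scripts were tested on simulated data. Python 3.11.15, numpy 2.4.6, pandas 2.3.3 and matplotlib 3.10.9 were used.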

Additional observations from a re-analysis of the deposited data

Results flagged for a closer look

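Among the 24 groups of 4 GM-CSF values (control level, KO level and difference at each of the 8 promoters), 3 held a clone far from the other 3 by Dixon's test, which chance flags in about 1 of 20 groups. At Add3, the KO minus control difference in clone 19 was −0.999 on the log2 scale, on 26 and 5 counts, while the other clones lay between 0.31 and 0.51. At Inpp5f, clone 20 was at −0.84, on 10 and 3 counts, with the others between 0.32 and 0.55. At Ankrd50, the control level of clone 19 was 68.6 CPM, on 7 counts, with the others between 102 and 107 CPM. All 3 values came from clones with a shallow library, and the part of depth in them was not tested.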

How the results depend on the processing

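At the promoters, KO minus control in SCF kept its direction for each gene under each alternative run, a direction that the choice of the genes fixed. In clones 23 to 29 alone, no tested promoter of any gene was called, so 0 of 8 there is no result about these genes. In GM-CSF, 0 of 8 were called under every alternative run, and with a clone left out Ankrd50 ran from −0.034 (without clone 22) to 0.38 and Chml from −0.049 (without clone 21) to 0.40. Between control lines, 1 gene called became 0 with DESeq2, against SCF clones 23 to 29 or without shallow clones, 2 with the mean of both lines (Ankrd50 at −0.43 and Smchd1, with Chml no longer called), and 0 to 1 with a GM-CSF clone left out. The run with the mean of both lines called 2718 of 9285 promoters lower. Directions turned with a clone left out for Ankrd50 (−0.064 to 0.015), Fzr1 (−0.083 to 0.070, and 0.0095 without clone 20), Pkn2 (−0.045 to 0.20) and Smchd1 (−0.19 to 0.29). They also turned for Ankrd50 (0.047) and Pkn2 (−0.013) without shallow clones, for Fzr1 (0.041) and Pkn2 (−0.040) against clones 23 to 29, and for Smchd1 between KO lines (−0.87), with the mean of both lines (−1.39) and with summed lines (−0.30). In the rest of the windows, Add3 turned within 10 kb (−0.43 between cytokines, 0.022 in SCF), as did Fzr1 in GM-CSF (0.076), and over peaks beyond 1 kb of every TSS Chml (−0.067) and Inpp5f (−0.038) turned between cytokines. The cause was not tested.

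Of the paralogs and partners, 2 called in SCF became 1 using clones 1 to 18 and 0 using clones 23 to 29. The 4 called between cytokines became 2 with DESeq2 or without shallow clones, 19 with the mean of both lines, 8 with summed lines, and 1 to 4 with a clone left out. Over all promoters in SCF, 384 higher and 104 lower became 206 higher (clones 1 to 18), 0 of either (clones 23 to 29), 237 and 53 with promoter share, 238 and 215 with upper-quartile scaling, and 6 lower with DESeq2. The 1 promoter called in GM-CSF became 5 with upper-quartile scaling, 3 without shallow clones and 0 without clone 21 or 22. The 426 higher and 569 lower between cytokines became 232 and 356 with DESeq2, 931 and 1140 with summed lines, 155 and 204 without clone 22, 248 higher between KO lines, and 2718 lower with the mean of both lines. In windows, 374 higher and 48 lower in SCF became 110 and 20 within 10 kb and 31 and 0 beyond 1 kb of every TSS, and 1210 and 1297 between cytokines became 461 and 559 within 10 kb, where fewer windows were tested.

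Without the replicate block, the clone pairing, the 8 differences in SCF were 0.31 to 0.43, a description of the contrast that chose the genes. In GM-CSF 0 of 8 promoters were called without the block, where 0 promoters in all were called. The block thus changed no GM-CSF call at the 8 promoters. Smchd1 has no adjusted p with DESeq2 in SCF, and Add3 was not measured at the 5′ end of the gene alone. Comparisons with summed lines and without clones 5, 13 and 16 were chosen after seeing the data.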
